A study of Homo sapiens with 18 samples.

Results

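The 9 genes described here encode parts of the B cell receptor, the first kinases and adaptors it engages, and a pair of B cell surface proteins: CD79A, CD79B, LYN, SYK, BTK, BLNK, PLCG2, MS4A1 and CD37. They were chosen by name, with earlier results of these data known. Counts of called genes among them are therefore descriptions when set beside the share of all genes. Each has 1 probe set on the array, and all 9 were found among the 22465 genes that could be named. RNA of JJN3 and KMS12-BM, established human plasma cell tumour lines labelled plasma cell leukemia and multiple myeloma, was measured on 18 whole-transcriptome microarrays in 6 groups of 3. JJN3 received amiloride at 0.4 mM, TG003 at 0.4 mM or DMSO, and KMS12-BM received amiloride at 0.1 mM, TG003 at 0.4 mM or DMSO. Drug exposure lasted 24 h, and the labels call the DMSO cells untreated. Amiloride, a potassium-sparing diuretic, acts on the epithelial sodium channel, and TG003 is an inhibitor of CLK kinases, which phosphorylate splicing factors. The amiloride dose differs between the lines, so line and dose cannot be told apart in any comparison of amiloride responses. The share of serum in the medium also differs between the lines.

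In a B cell, antigen binding to the receptor lets LYN phosphorylate the cytoplasmic tails of CD79A and CD79B, the paired chains that carry the signal inward. SYK binds the phosphorylated tails and phosphorylates the adaptor BLNK, which brings together the kinase BTK and the phospholipase PLCG2. PLCG2 then cleaves a membrane lipid into messengers that release calcium and activate protein kinase C. Plasma cells secrete antibody and usually shut down much of this machinery along with the surface proteins MS4A1, known as CD20, and CD37, a tetraspanin.

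Values are log2 expression values, and a difference is that between 2 group means, with its SE, from a limma fit over all 22465 genes (n = 3 arrays per group). A gene counts as called at an adjusted p under 0.05. Nothing in the labels tells separate cultures from repeated measurements of one culture, and the p-values may therefore reflect technical spread. A background reference of 6.99 was taken from ERCC control probe sets, and a group below it is given only as a bound in any fold. The labels of the third KMS12-BM amiloride array conflict, as its title, source, disease and dose give KMS12-BM but 1 field names JJN3. Its correlation across genes averaged 0.9317 with amiloride arrays of JJN3 and 0.9979 with the others of its own group, where it was kept. Within groups the correlation between arrays was 0.9955 to 0.9984. In DMSO, IRF4 averaged 14.39 in JJN3 and 14.76 in KMS12-BM, PRDM1 averaged 11.40 and 10.23 in the same order, and XBP1 averaged 11.50 and 10.87, all regulators of the plasma cell state. Of 9 plasma cell markers, IRF4, PRDM1 and XBP1 included, 5 were called higher in JJN3, against 18.9% of all genes. Another 3 were called lower, against 22.3% of all genes, and IRF4 was not called (adjusted p = 0.058 by limma). Among the 5 higher, SLAMF7 averaged 4.32 in JJN3 and 4.10 in KMS12-BM, below the background reference in both. The surface marker SDC1 averaged 7.34 in JJN3 and 5.69 in KMS12-BM, and the antibody joining chain gene JCHAIN averaged 16.60 in JJN3 and 5.50 in KMS12-BM, so SDC1 and JCHAIN lay below the background reference in KMS12-BM. The 3 lower were TNFRSF17, at 8.67 in JJN3 and 9.73 in KMS12-BM, MZB1, at 8.46 in JJN3 and 9.22 in KMS12-BM, and CD38, at 6.03 in JJN3, below the background reference, and 11.54 in KMS12-BM.

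In DMSO, most of the 9 genes differed between the lines. BTK, BLNK, CD79A and CD37 were high in KMS12-BM and below the background reference in JJN3, PLCG2 was lower in JJN3 though measured in both, and CD79B and LYN were higher in JJN3. Of the 9 genes, 8 were called, against 41.2% of all genes tested. There were 2 higher in JJN3, against 18.9% of all genes, and 6 lower in JJN3, against 22.3% of all genes. The median difference was -2.87 over the 9 genes and -0.02 over all genes. In cell lines as in any bulk sample, fewer cells expressing a gene and less RNA per cell cannot be told apart.

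The receptor chains went opposite ways. CD79A, the chain whose tail starts the signal together with CD79B, read 4.83, 5.10 and 4.99 on the JJN3 DMSO arrays and 11.50, 10.73 and 11.11 on the KMS12-BM DMSO arrays. Every JJN3 array lay below the background reference, so CD79A was at least 17.5-fold higher in KMS12-BM (adjusted p = 6.1e-12 by limma). CD79B read 9.16, 8.85 and 9.15 in JJN3 DMSO and 8.02, 7.96 and 7.94 in KMS12-BM DMSO. The CD79B arrays did not overlap, and the difference of 1.08 ± 0.17 made it 2.11-fold higher in JJN3 (adjusted p = 5e-05).

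Of the kinases, LYN, the Src-family kinase that acts on the receptor tails, read 12.69, 12.55 and 12.41 in JJN3 DMSO and 11.28, 11.10 and 11.30 in KMS12-BM DMSO. The difference of 1.32 ± 0.09 made LYN 2.5-fold higher in JJN3 (adjusted p = 2.7e-09), with no overlap. BTK, the Tec-family kinase that activates PLCG2, read 5.01, 4.90 and 5.10 in JJN3 DMSO and 12.28, 12.12 and 11.96 in KMS12-BM DMSO. BTK was at least 35.1-fold higher in KMS12-BM (adjusted p = 2.6e-15), and all 9 JJN3 arrays of any treatment lay below the background reference. SYK, which docks on the phosphorylated tails, lay between 4.06 and 4.33 on all 18 arrays. No array showed SYK above the background reference, and no fold is given for it.

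The adaptor and the phospholipase were both lower in JJN3. BLNK read 5.63, 5.44 and 5.70 in JJN3 DMSO and 13.25, 13.36 and 13.12 in KMS12-BM DMSO, which makes it at least 76.4-fold higher in KMS12-BM (adjusted p = 5.4e-17). PLCG2 read 8.05, 8.09 and 8.39 in JJN3 DMSO and 11.16, 10.98 and 11.00 in KMS12-BM DMSO. PLCG2 lay above the background reference on all 18 arrays, and the difference of -2.87 ± 0.14 made it 7.31-fold higher in KMS12-BM (adjusted p = 4.2e-11). Of the surface proteins, CD37 read 6.66, 6.80 and 6.75 in JJN3 DMSO and 14.18, 13.83 and 14.02 in KMS12-BM DMSO. CD37 was at least 130-fold higher in KMS12-BM (adjusted p = 4.3e-15). MS4A1 lay below the background reference on all 18 arrays, between 4.21 and 4.44 in JJN3 and between 5.03 and 5.58 in KMS12-BM. The fit called MS4A1 lower in JJN3 (adjusted p = 1.2e-08), but no fold is given for a gene that neither line shows above background.

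**Figure D1:**
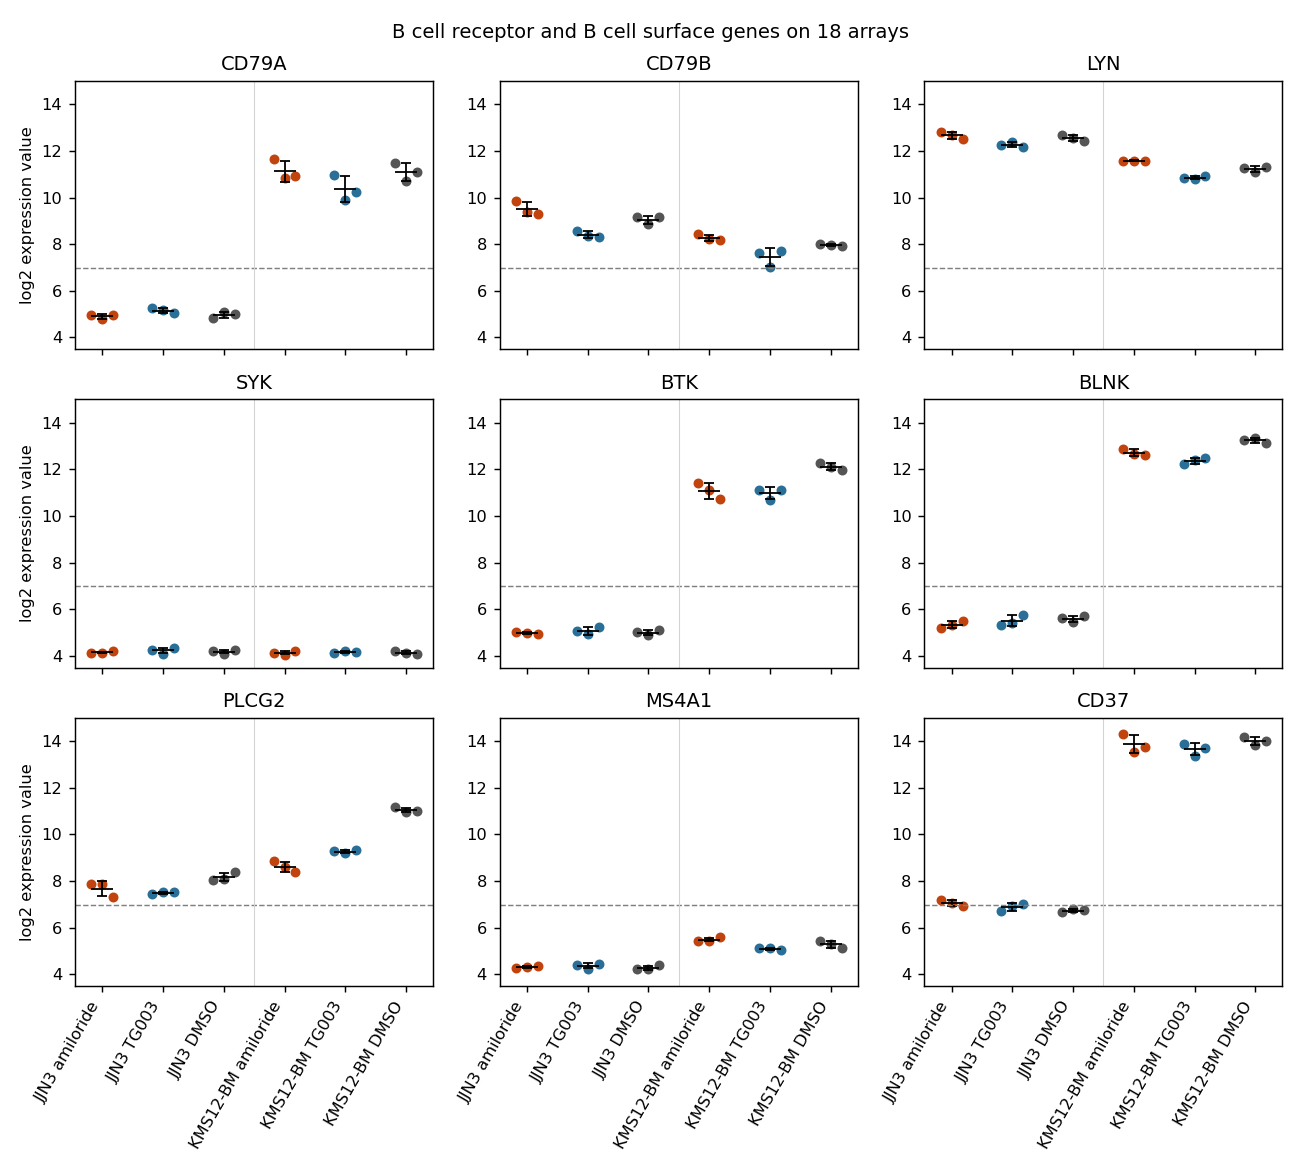
Log2 expression of the 9 genes on the 18 arrays, 1 panel a gene, with points for arrays, horizontal bars for group means, error bars for SD (n = 3) and a dashed line at the background reference of 6.99. JJN3 groups stand left of KMS12-BM groups and drug groups left of DMSO, and the gap between the lines is widest for BLNK, CD37, BTK and CD79A, while all SYK and MS4A1 arrays lie under the dashed line.

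The stretch around the start of transcription is shown for the genes whose low JJN3 level or drug response the results below turn on, and for which the promoter table holds an entry. Each run is 300 bases, from upstream of the most upstream start listed for the gene to just past that start. It is read 5′ to 3′ on the gene's own strand, from RefSeq on GRCh38.p14. Any other start of these genes is not shown, and which start these cells use was not tested. BTK lies at chrX:101390747-101391046 on the minus strand, BLNK at chr10:96271520-96271819 on the minus strand, CD79A at chr19:41877029-41877328 on the plus strand and PLCG2 at chr16:81738791-81739090 on the plus strand. Capitals mark AGGAAG on either strand, a core of the sequence that ETS-family factors such as SPI1 bind. SPI1 itself averaged 4.93 in JJN3 and 5.72 in KMS12-BM in DMSO, and it lay below the background reference in every group.
BTK: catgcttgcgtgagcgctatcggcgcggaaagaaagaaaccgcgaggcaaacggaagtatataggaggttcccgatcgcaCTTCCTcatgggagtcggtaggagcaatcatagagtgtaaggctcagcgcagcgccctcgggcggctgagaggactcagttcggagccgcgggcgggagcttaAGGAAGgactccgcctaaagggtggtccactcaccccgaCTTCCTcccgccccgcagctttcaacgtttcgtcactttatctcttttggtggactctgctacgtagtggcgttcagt
BLNK: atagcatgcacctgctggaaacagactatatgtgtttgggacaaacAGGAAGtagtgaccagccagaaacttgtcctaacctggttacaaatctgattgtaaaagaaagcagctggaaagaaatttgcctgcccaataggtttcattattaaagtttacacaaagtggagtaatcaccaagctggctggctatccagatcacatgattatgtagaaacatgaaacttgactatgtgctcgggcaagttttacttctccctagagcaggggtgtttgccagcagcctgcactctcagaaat
CD79A: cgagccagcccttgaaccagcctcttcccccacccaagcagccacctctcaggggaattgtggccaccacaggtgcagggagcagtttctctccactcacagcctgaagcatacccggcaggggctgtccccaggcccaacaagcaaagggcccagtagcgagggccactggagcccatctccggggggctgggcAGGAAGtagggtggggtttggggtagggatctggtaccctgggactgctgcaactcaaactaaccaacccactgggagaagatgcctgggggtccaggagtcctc
PLCG2: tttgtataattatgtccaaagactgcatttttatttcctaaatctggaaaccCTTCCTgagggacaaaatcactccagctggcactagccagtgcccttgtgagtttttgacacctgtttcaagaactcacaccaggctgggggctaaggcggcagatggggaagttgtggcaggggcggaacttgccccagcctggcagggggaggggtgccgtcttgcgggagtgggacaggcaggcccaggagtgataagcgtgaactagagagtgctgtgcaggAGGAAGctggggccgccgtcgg
AGGAAG occurred 3 times in the BTK run, at positions 81, 184 and 223 counted from 1 at the 5′ end, once in BLNK at position 47, once in CD79A at position 196, and at positions 53 and 279 in PLCG2. It occurs in 33.6% of the 35116 promoter runs of the same length. The longer form GAGGAAGT, which overlaps AGGAAG, occurs in 2.59% of them, and the BTK run holds 2 copies, at positions 80 and 222, with none in the other printed runs. CAGGTG, a core bound by E-box factors, occurs in 20.6% of promoter runs and in those of BLNK, CD79A and PLCG2. ATTTGCAT, the octamer bound by POU2F2, occurs in 1.77% of promoter runs and in none of the printed runs. These matches describe the letters and show no binding.

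With amiloride at 0.1 mM, PLCG2, BTK and BLNK, which act together below the receptor, fell in KMS12-BM. LYN rose, while CD79A, CD79B, CD37, MS4A1 and SYK were not called. That is 4 of 9 genes called, against 30.6% of all genes tested. The 1 higher gene stands beside 17.0% of all genes, and the 3 lower genes beside 13.6% of all genes. The median difference was -0.01 over the 9 genes and -0.02 over all genes.

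PLCG2 read 8.84, 8.61 and 8.39 on the KMS12-BM amiloride arrays and 11.16, 10.98 and 11.00 on the KMS12-BM DMSO arrays. It fell by 2.43 ± 0.14 (adjusted p = 2.2e-09), a level 5.4-fold lower, and its amiloride arrays overlapped none of the DMSO arrays. BTK read 11.42, 11.11 and 10.71 with amiloride and 12.28, 12.12 and 11.96 with DMSO. BTK fell by 1.04 ± 0.15 (adjusted p = 4.8e-05), again with no overlap. BLNK read 12.89, 12.66 and 12.61 with amiloride and 13.25, 13.36 and 13.12 with DMSO, and it fell by 0.52 ± 0.12 (adjusted p = 0.0024). LYN moved the other way, at 11.55, 11.59 and 11.58 with amiloride and 11.28, 11.10 and 11.30 with DMSO, a rise of 0.35 ± 0.09 (adjusted p = 0.006). Without the array whose cell line field conflicts, the 4 calls held, with differences of -2.32 for PLCG2, -0.85 for BTK, -0.47 for BLNK and 0.34 for LYN. With a further quantile normalization the LYN difference was 0.17 (adjusted p = 0.15), so that call depends on the scaling.

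CD79A read 11.65, 10.82 and 10.91 with amiloride and 11.50, 10.73 and 11.11 with DMSO. The groups overlapped, and the difference of 0.01 ± 0.25 has a 95% interval from -0.52 to 0.55 (adjusted p = 0.98). CD79B read 8.42, 8.22 and 8.20 with amiloride and 8.02, 7.96 and 7.94 with DMSO. All 3 amiloride arrays lay above all 3 DMSO arrays, yet the difference of 0.31 ± 0.17 was not called (adjusted p = 0.21). It was called when the fit used only the groups compared (adjusted p = 0.017). CD37 read 14.29, 13.55 and 13.76 with amiloride and 14.18, 13.83 and 14.02 with DMSO, with overlap and an interval from -0.49 to 0.21.

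TG003 at 0.4 mM lowered 5 of the 9 genes in KMS12-BM, and none was higher at the threshold. PLCG2, BTK, BLNK, CD79B and LYN fell, so LYN went down with TG003 where it went up with amiloride. The 5 called stand beside 14.8% of all genes tested, and, as all were lower, beside 6.52% of all genes called lower. The median difference was -0.53 over the 9 genes and -0.01 over all genes. The comparison shares its DMSO arrays with that of amiloride.

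PLCG2 read 9.27, 9.20 and 9.32 on the KMS12-BM TG003 arrays, against 11.16, 10.98 and 11.00 with DMSO, and fell by 1.79 ± 0.14 (adjusted p = 8.7e-07), a level 3.45-fold lower. BTK read 11.12, 10.69 and 11.12 with TG003 and fell by 1.15 ± 0.15 (adjusted p = 1.1e-04). BLNK read 12.24, 12.40 and 12.47 with TG003 and fell by 0.87 ± 0.12 (adjusted p = 1.2e-04). For these 3 genes every TG003 array lay below every DMSO array. LYN read 10.82, 10.81 and 10.94 with TG003 and fell by 0.37 ± 0.09 (adjusted p = 0.0086).

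The receptor chains were the less certain part. CD79B read 7.61, 7.01 and 7.72 with TG003 and fell by 0.53 ± 0.17 (adjusted p = 0.046). The second TG003 array lay close to the background reference, and without it the difference was -0.31 (adjusted p = 0.24). The CD79B call was also lost without DMSO array 1, 2 or 3 (adjusted p = 0.12, 0.092 and 0.095), with arrays centred on their medians (adjusted p = 0.051), with all probe sets tested (adjusted p = 0.078) and with only the groups compared (adjusted p = 0.11). CD79A read 10.98, 9.88 and 10.25 with TG003 and overlapped the DMSO arrays. Its difference was -0.75 ± 0.25 (adjusted p = 0.06), and with the replicate number as a block it was called lower (adjusted p = 0.02). CD79A was also called with only genes above the background reference tested (adjusted p = 0.024), without DMSO array 2 (adjusted p = 0.031) and without TG003 array 1 (adjusted p = 0.0063). CD37 read 13.90, 13.38 and 13.71 with TG003, with overlap and a difference of -0.35 ± 0.16 (adjusted p = 0.21).

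**Figure D2:**
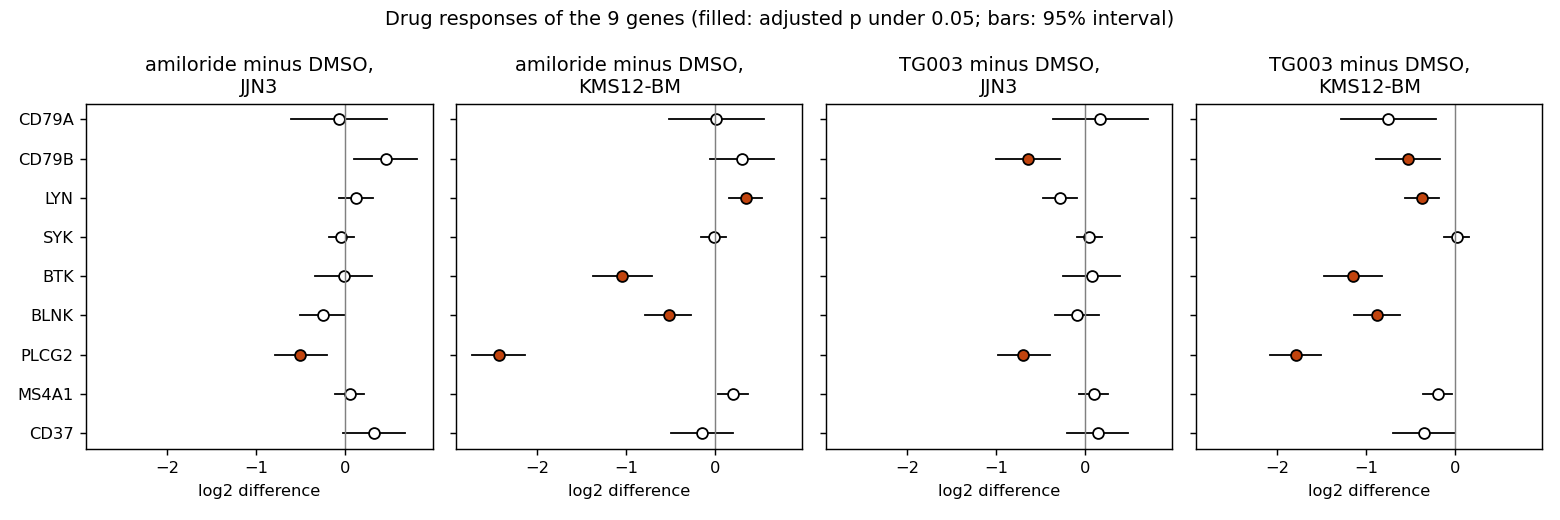
Log2 difference of each drug from DMSO in each line for the 9 genes, with points for the fitted difference, bars for its 95% interval and filled points for an adjusted p under 0.05. PLCG2 is called lower in all 4 panels, BTK and BLNK are called lower in KMS12-BM only, and LYN lies above 0 with amiloride and below 0 with TG003 in KMS12-BM; whether responses differ between lines is tested separately in the text.

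In JJN3, PLCG2 was the 1 gene called under amiloride at 0.4 mM, against 14.8% of all genes tested and 6.12% called lower. PLCG2 read 7.86, 7.86 and 7.32 on the JJN3 amiloride arrays and 8.05, 8.09 and 8.39 on the JJN3 DMSO arrays. It fell by 0.50 ± 0.14 (adjusted p = 0.022) with no overlap, but the call was lost without JJN3 amiloride array 3 (difference -0.32, adjusted p = 0.1) or without JJN3 DMSO array 3 (difference -0.39, adjusted p = 0.11), and with only the groups compared (adjusted p = 0.11). CD79B read 9.86, 9.38 and 9.28 with amiloride and 9.16, 8.85 and 9.15 with DMSO. All its amiloride arrays lay above its DMSO arrays, and the difference of 0.46 ± 0.17 was not called (adjusted p = 0.091). It was called with the replicate number as a block (adjusted p = 0.031) and with only genes above the background reference tested (adjusted p = 0.041). LYN read 12.82, 12.70 and 12.52 with amiloride and overlapped DMSO, with a difference of 0.13 ± 0.09 (adjusted p = 0.45). CD37 read 7.19, 7.07 and 6.95 with amiloride, around the background reference, with a difference of 0.33 ± 0.16 (adjusted p = 0.25) that was called with only the groups compared (adjusted p = 0.039). BTK, BLNK and CD79A lay below the background reference on every JJN3 array, so only a bound is known there.

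TG003 lowered PLCG2 and CD79B in JJN3, which is 2 of 9 genes called, against 9.38% of all genes tested and 5.64% called lower. PLCG2 read 7.43, 7.53 and 7.52 with TG003 and fell by 0.69 ± 0.14 (adjusted p = 0.0041), below all JJN3 DMSO arrays. CD79B read 8.58, 8.34 and 8.32 with TG003 and fell by 0.64 ± 0.17 (adjusted p = 0.026). Its adjusted p was 0.095 without JJN3 DMSO array 1 or 3, 0.077 without TG003 array 2 and 0.088 without TG003 array 3. LYN read 12.27, 12.39 and 12.15 with TG003, all below the DMSO arrays, but its difference of -0.28 ± 0.09 was not called (adjusted p = 0.06). It was called with a further quantile normalization (adjusted p = 0.043), without JJN3 TG003 array 2 (adjusted p = 0.041) and without JJN3 DMSO array 3 (adjusted p = 0.038). CD37 read 6.70, 6.94 and 7.02 with TG003, around the background reference, with a difference of 0.15 ± 0.16 (adjusted p = 0.73). The medians over the 9 genes were 0.05 for TG003 and -0.01 for amiloride in JJN3, and over all genes they were 0.02 and -0.02.

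The difference between the lines in response was tested directly, as the JJN3 response minus the KMS12-BM response. For PLCG2 the amiloride response was -0.50 in JJN3 and -2.43 in KMS12-BM, and these differed by 1.94 ± 0.19 (adjusted p = 5.1e-06). Its TG003 response was -0.69 in JJN3 and -1.79 in KMS12-BM, and these differed by 1.10 ± 0.19 at equal doses (adjusted p = 0.0041). BTK differed by 1.03 ± 0.22 for amiloride (adjusted p = 0.003) and by 1.23 ± 0.22 for TG003 (adjusted p = 0.0042). BLNK differed by 0.78 ± 0.17 for TG003 (adjusted p = 0.014) and by 0.27 ± 0.17 for amiloride (adjusted p = 0.35). In JJN3 both BTK and BLNK lay below the background reference with every treatment, so their JJN3 responses compare values for which only a bound is known. No fall of either could have been seen there, so whether their responses differ between the lines is not known. PLCG2 averaged 8.18 in JJN3 DMSO, so falls of the KMS12-BM size would have ended below the background reference of 6.99. In all, 2 of 9 genes were called for amiloride, against 18.5% of all genes, and 3 of 9 for TG003, against 4.57% of all genes. BTK is in both counts and BLNK in that of TG003. Without the array whose cell line field conflicts, the amiloride values were 1.82 for PLCG2 and 0.84 for BTK, and both calls held. For CD79B and LYN no difference in response was called, with intervals from -0.36 to 0.65 and from -0.48 to 0.05 for amiloride, and from -0.61 to 0.40 and from -0.18 to 0.36 for TG003.

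Set directly against each other, the drugs separated CD79B and LYN in both lines. In JJN3, where both were given at 0.4 mM, CD79B was higher with amiloride than with TG003 by 1.09 ± 0.17 (adjusted p = 2.9e-04), and LYN by 0.41 ± 0.09 (adjusted p = 0.0038). These are 2 of 9 genes called, against 16.9% of all genes. PLCG2 was not called there, with a difference of 0.19 and an interval from -0.10 to 0.48, but it was called without JJN3 amiloride array 3 (difference 0.37, adjusted p = 0.046). In KMS12-BM amiloride was given at 0.1 mM and TG003 at 0.4 mM, so drug and dose cannot be told apart. There 6 of 9 genes were called, against 29.8% of all genes. CD79B was higher with amiloride by 0.84 ± 0.17 (adjusted p = 9.1e-04) and LYN by 0.72 ± 0.09 (adjusted p = 7.9e-06), while PLCG2 was lower with amiloride, at -0.65 ± 0.14 (adjusted p = 0.0015). BLNK at 0.35 ± 0.12 (adjusted p = 0.035) and CD79A at 0.76 ± 0.25 (adjusted p = 0.03) were higher with amiloride. Both calls were lost with a further quantile normalization (adjusted p = 0.13 for BLNK and 0.088 for CD79A) and without KMS12-BM amiloride array 1 (adjusted p = 0.17 for each) or TG003 array 2 (adjusted p = 0.061 for BLNK and 0.17 for CD79A). The BLNK call was also lost without amiloride array 2 or TG003 array 1 (adjusted p = 0.054 and 0.15), and the CD79A call without TG003 array 3 (adjusted p = 0.095). With all probe sets tested the adjusted p was 0.066 for BLNK and 0.053 for CD79A, and with only the groups compared it was 0.14 for CD79A. The sixth was MS4A1 (adjusted p = 7.2e-04), below the background reference in both groups. BTK was not called, at 0.11 with an interval from -0.22 to 0.44.

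Over the 6 groups, the order of the levels was as follows. BTK ran, from high to low, through KMS12-BM DMSO, amiloride and TG003, where the amiloride and TG003 arrays overlapped, and then the 3 overlapping JJN3 groups. For BLNK the KMS12-BM order was DMSO, amiloride and TG003 with every neighbour apart. PLCG2 ran through KMS12-BM DMSO, TG003 and amiloride, then JJN3 DMSO, amiloride and TG003, and its KMS12-BM amiloride arrays overlapped the JJN3 DMSO arrays. CD79B ran through JJN3 amiloride, DMSO and TG003 and then KMS12-BM in the same order of treatments, with overlap only between JJN3 TG003 and KMS12-BM amiloride. LYN had that same order, with overlap between JJN3 amiloride and JJN3 DMSO. After each line's mean was taken out, the correlation over 18 arrays was 0.84 for CD79B with LYN, at 0.87 over the 9 JJN3 arrays and 0.88 over the 9 KMS12-BM arrays. It was also 0.84 for BTK with PLCG2, at -0.02 in JJN3, where BTK lay below the background reference, and 0.90 in KMS12-BM. For BTK with BLNK it was 0.84, at 0.54 in JJN3, where both lay below the background reference, and 0.89 in KMS12-BM. These are descriptions over arrays that share lines and treatments.

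Among genes whose group means spread by at least 1 within a line, those most like PLCG2 on the same measure were KISS1R (r = 0.98), SEPTIN3 (r = 0.98) and LINC00341 (r = 0.97). SEPTIN3 differed from DMSO in KMS12-BM by -3.32 with amiloride and -2.48 with TG003. Most like BTK were the cytokine receptor chain CSF2RB (r = 0.92), the ATP-gated channel P2RX1 (r = 0.92) and the B cell costimulatory receptor CD27 (r = 0.91). For BLNK they were PLD4 (r = 0.86), INPP5A (r = 0.85) and CSF2RB (r = 0.85). For CD79B they were the chemokine receptor CCR2 (r = 0.92), TAPBPL (r = 0.90) and DCBLD2 (r = 0.90). CCR2 lay below the background reference with TG003 in both lines. Most like LYN were E2F5 (r = 0.95), ESYT1 (r = 0.94) and ZFYVE26 (r = 0.94). All r are over 18 arrays. BTK and BLNK lay below the background reference on every JJN3 array, so for them that line adds values for which only a bound is known. CSF2RB, named for both, differed from DMSO in KMS12-BM by -1.55 with amiloride and -1.95 with TG003. In JJN3 its differences were -0.05 and -0.23.

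The rest of the pathway was read from 6 lists with 84 other genes, of which 77 were measured. These lists too were chosen with earlier results of these data known, so their counts are descriptions. In DMSO, 20 of the 77 were higher (26.0%, against 18.9% of all genes) and 39 lower (50.6%, against 22.3% of all genes) in JJN3. Some calls in either direction were of genes below the background reference in both lines, named with their lists. The median difference was -0.20 over the 77 and -0.02 over all genes, and the same all-gene shares stand beside the counts of each list that follow. Of the 14 coreceptors and surface proteins, 2 were higher and 7 lower in JJN3. Among the lower, CD40, CD72, FCRLA and TNFRSF13C lay below the background reference in both lines. CD27 averaged 5.43 in JJN3 and 14.19 in KMS12-BM, and the ectoenzyme CD38 was also lower in JJN3. The tetraspanin CD53 averaged 9.29 in JJN3 and 12.92 in KMS12-BM, whereas the tetraspanin CD82 averaged 6.92 in JJN3 and 5.15 in KMS12-BM, below the background reference in both. Of the 14 kinases and phosphatases, 5 were higher and 6 lower in JJN3. FYN and TEC among the higher, and LCK and PTPRC among the lower, lay below the background reference in both lines. The phosphatase PTPN6, which restrains receptor signalling, averaged 5.59 in JJN3 and 11.07 in KMS12-BM, and CSK, the kinase that inhibits Src-family kinases such as LYN, differed by -1.59 ± 0.08 (adjusted p = 1.4e-10). PAG1, a membrane anchor of CSK, averaged 7.43 in JJN3 and 4.31 in KMS12-BM, and the ubiquitin ligase CBLB averaged 7.44 in JJN3 and 4.68 in KMS12-BM.

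Of the 15 adaptors and exchange factors, 6 were higher and 9 lower in JJN3. SH3BP2 among the higher and RASGRP1 among the lower lay below the background reference in both lines. The Rac exchange factor VAV3 averaged 8.03 in JJN3 and 4.87 in KMS12-BM, and the membrane adaptor LAT2 averaged 5.45 in JJN3 and 7.05 in KMS12-BM. BANK1 averaged 6.04 in JJN3 and 4.76 in KMS12-BM, below the background reference in both, and CD2AP differed by -1.27 ± 0.09 (adjusted p = 4.2e-09). Of the 14 lipid and calcium signalling genes, 3 were higher and 10 lower in JJN3. NFATC1, among the lower, lay below the background reference in both lines. PIK3CG, a catalytic subunit of phosphoinositide 3-kinase, differed by -3.30 ± 0.10 (adjusted p = 9.1e-14), the calcium release channel ITPR2 by -2.01 ± 0.11 (adjusted p = 1.7e-10), PIK3R1 by -1.67 ± 0.10 and ITPR3 by -1.51 ± 0.20. Of the 9 protein kinase C and NF-kB branch genes, 3 were higher and 4 lower in JJN3. PRKCB, the protein kinase C that acts below BTK in B cells, averaged 9.04 in JJN3 and 4.79 in KMS12-BM, while PRKCD averaged 8.37 in JJN3 and 10.38 in KMS12-BM. Of 11 inhibitory receptors 1 was higher and 3 lower, and LAIR1, at 7.80 in JJN3 and 5.25 in KMS12-BM, was the one above the background reference in either line.

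**Figure D3:**
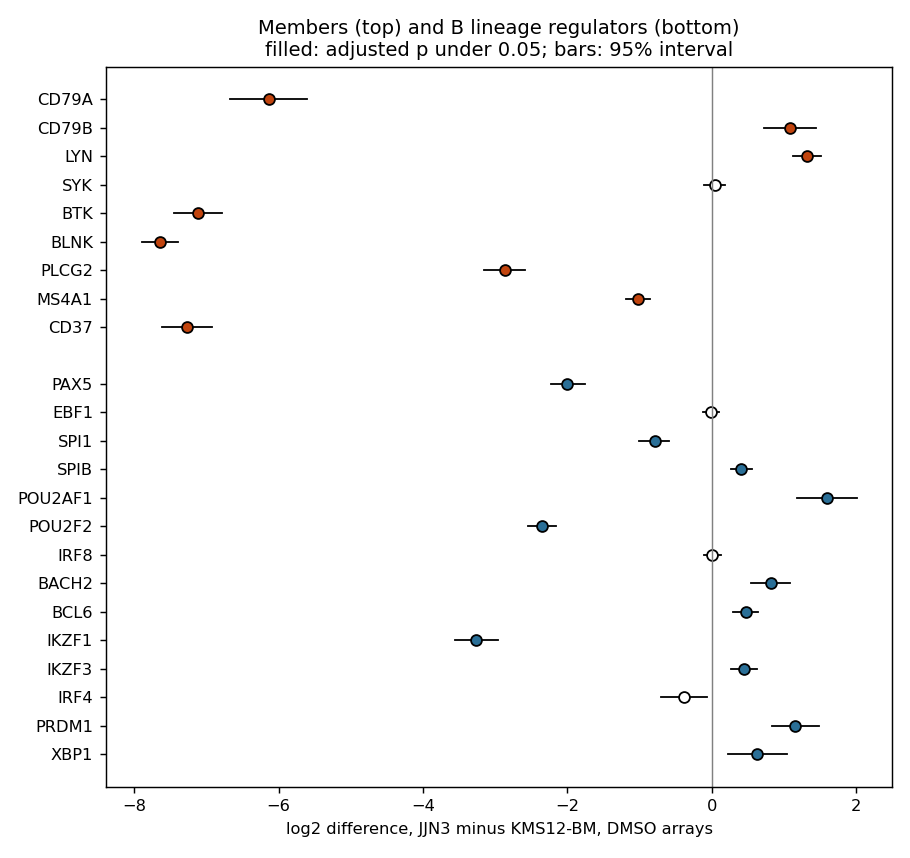
Log2 difference of JJN3 from KMS12-BM in DMSO for the 9 genes (top) and 14 B lineage regulators (bottom), with points for the fitted difference, bars for the 95% interval and filled points for an adjusted p under 0.05. BLNK, CD37, BTK and CD79A lie below -6, LYN and CD79B above 1, and among the regulators IKZF1, POU2F2 and PAX5 lie lowest and POU2AF1 highest; fitted values against a group below the background reference are no fold.

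Among the 14 B lineage regulators, 7 were higher, against 18.9% of all genes, and 4 lower in JJN3, against 22.3%. The higher calls included SPIB, BACH2 and BCL6, which lay below the background reference in both lines. They also included PRDM1 and XBP1, counted above among the plasma cell markers. Of the lower calls, SPI1 and PAX5 lay below the background reference in both lines. IKZF1 averaged 9.28 in JJN3 and 12.55 in KMS12-BM, and POU2F2 averaged 5.12 in JJN3 and 7.47 in KMS12-BM. PAX5, which drives B cell identity and CD79A transcription, averaged 4.96 in JJN3 and 6.95 in KMS12-BM, just under the background reference. EBF1, another activator of CD79A, averaged 4.29 in JJN3 and 4.30 in KMS12-BM. POU2AF1, a coactivator of octamer factors, averaged 12.19 in JJN3 and 10.60 in KMS12-BM.

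Under amiloride in KMS12-BM, 16 of the 77 other pathway genes rose (20.8%, against 17.0% of all genes) and 19 fell (24.7%, against 13.6% of all genes). The share that rose was thus near that of all genes, and the same all-gene shares apply to each list. Of the coreceptors and surface proteins, 4 fell and none rose, with CD27 at -1.37 ± 0.15 (adjusted p = 2.1e-06) and the tetraspanin CD81 at -0.39 ± 0.09; FCRLA and TNFRSF13C also fell, below the background reference. Of the kinases and phosphatases, 2 rose and 4 fell, among them the Src-family kinase YES1 at 1.45 ± 0.12, the ubiquitin ligase CBL at 1.27 ± 0.20 and the phosphatase PTPN22 at -0.92 ± 0.10. LCK, TEC and PTPRC, the others that fell, lay below the background reference with amiloride and with DMSO. Of the adaptors and exchange factors, 3 rose and 6 fell, with SHC1 at -1.60 ± 0.11 and the exchange factor VAV1 at -1.17 ± 0.12. LAT2 fell to 6.03 with amiloride, below the background reference, against 7.05 with DMSO. RASGRP1 averaged 6.22 with amiloride and 5.09 with DMSO, below the background reference. The lipid and calcium genes rose in 6 cases and fell in 2, with PIK3CG at 1.10 ± 0.10, the calcineurin subunit PPP3CA at 0.82 ± 0.11, its substrate NFATC2 at 1.04 ± 0.12 and ITPR3 at -0.80 ± 0.20. Of the protein kinase C and NF-kB branch genes 5 rose and 1 fell, with TRAF6 at 1.40 ± 0.17, BCL10 at 0.98 ± 0.11, MAP3K7 at 0.88 ± 0.10 and PRKCD at -1.48 ± 0.07. IKBKB, which also rose, lay below the background reference with amiloride and with DMSO. The 2 inhibitory receptors that fell, FCGR2B and SIGLEC10, lay below the background reference.

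Under TG003 in KMS12-BM, 2 of the 77 rose (2.60%, against 8.30% of all genes) and 17 fell (22.1%, against 6.52% of all genes). CD27 fell by 2.04 ± 0.15 (adjusted p = 5.7e-07) and CD38 by 1.30 ± 0.23 (adjusted p = 9.2e-04), the 2 coreceptors and surface proteins called. The 3 kinases and phosphatases that fell were PTPN6 at -0.72 ± 0.13, PTPN22 at -0.55 ± 0.10 and ZAP70 at -0.29 ± 0.08. Of the adaptors and exchange factors 6 fell, among them VAV1 at -0.88 ± 0.12 and the small GTPase RAC2 at -0.52 ± 0.17. LAT2 averaged 6.39 with TG003 and 7.05 with DMSO, and RASGRP3 averaged 6.39 with TG003 and 7.03 with DMSO, both below the background reference with TG003. PPP3CA fell by 1.21 ± 0.11, ITPR2 by 0.49 ± 0.11 and PIK3CG by 0.44 ± 0.10, the 3 lipid and calcium genes called. Among protein kinase C and NF-kB branch genes, MAP3K7 at 0.74 ± 0.10 and TRAF6 at 0.57 ± 0.17 rose, and PRKCD at -1.04 ± 0.07 and CHUK at -0.35 ± 0.08 fell. Of the inhibitory receptors FCGR2B was called lower, below the background reference.

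In JJN3, amiloride raised 12 of the 77 (15.6%, against 8.65% of all genes) and lowered 7 (9.09%, against 6.12%). TG003 raised 5 (6.49%, against 3.74% of all genes) and lowered 9 (11.7%, against 5.64%). Among these calls, BANK1 rose with amiloride and PLCG1 fell with both drugs, below the background reference in every JJN3 group. PTPN22 fell by 1.28 ± 0.10 with amiloride (adjusted p = 1e-06) and by 0.78 ± 0.10 with TG003 (adjusted p = 1e-04), and CBLB rose by 0.83 ± 0.14 with amiloride. YES1 rose by 0.38 ± 0.12 with amiloride and fell by 0.53 ± 0.12 with TG003. RAC2 fell by 0.79 ± 0.17 with amiloride and by 0.70 ± 0.17 with TG003, VAV1 fell by 0.87 ± 0.12 with TG003, and VAV3 rose by 0.41 ± 0.11 with amiloride. PRKCB fell by 0.58 ± 0.17 with amiloride and by 0.63 ± 0.17 with TG003. PPP3CA rose by 0.60 ± 0.11 and MALT1 by 0.63 ± 0.10 with amiloride. With TG003, the lipid phosphatase INPP5D fell by 0.84 ± 0.09 and MAP3K7 rose by 0.67 ± 0.10.

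**Figure D4:**
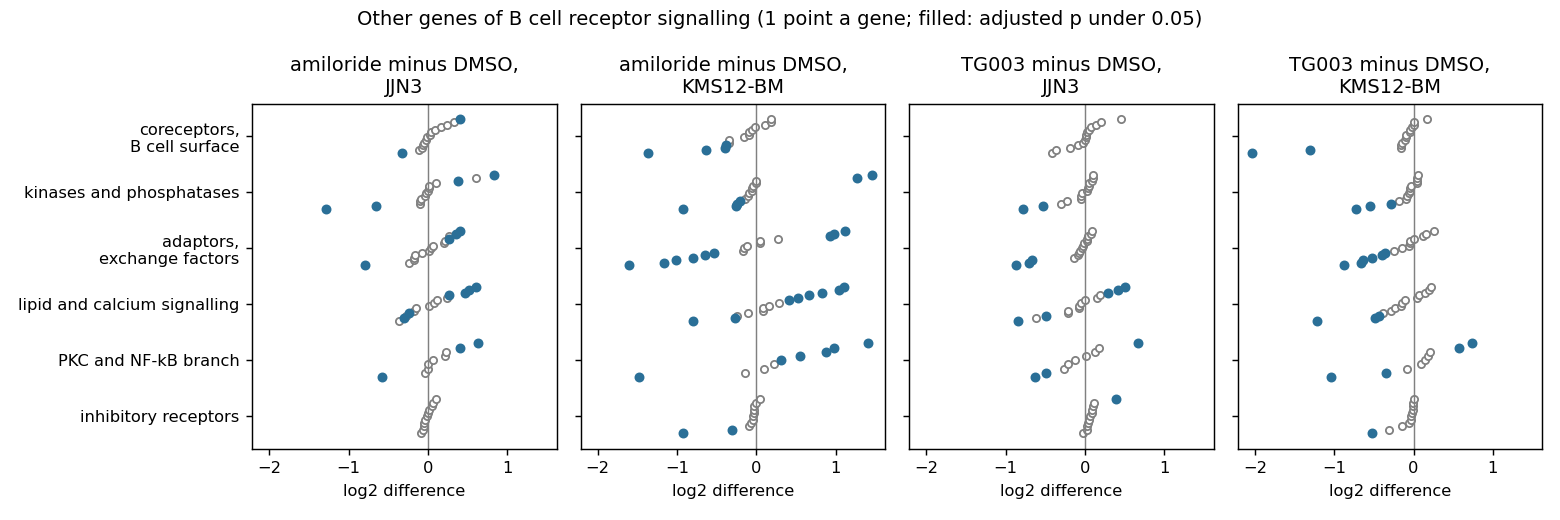
Log2 difference of each drug from DMSO in each line for the 77 other measured pathway genes, 1 point a gene in the row of its list, filled at an adjusted p under 0.05. In KMS12-BM amiloride gives 16 filled points above 0 and 19 below, and TG003 gives 2 above and 17 below; in JJN3 the counts are 12 and 7 for amiloride and 5 and 9 for TG003.

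Markers of other cells were low throughout. None of 9 T and NK cell markers lay above the background reference in any group, with summed linear levels of 183 to 215 across all arrays. Of 9 myeloid markers 1 did, CD68 in KMS12-BM DMSO, at 6.68 with amiloride, 6.81 with TG003 and 8.10 with DMSO. The summed myeloid level in KMS12-BM was 284 to 293 with amiloride, 269 to 319 with TG003 and 426 to 544 with DMSO, and 245 to 323 in JJN3, with CD14, MPO and LYZ below the background reference in every group. CD68 thus moved in the direction of PLCG2, BTK and BLNK in KMS12-BM, and its part in those results was not tested. Plasma cell markers moved too: of 9, 5 fell and none rose with TG003 in KMS12-BM, against 6.52% of all genes called lower, CD38, also a coreceptor here, among them. With TG003 in JJN3, 5 fell and none rose, against 5.64% of all genes called lower. TNFRSF17 fell to 6.58 with TG003 in JJN3, below the background reference, against 8.67 with DMSO, and changed by -1.70 ± 0.26 in KMS12-BM. With amiloride 2 rose and 1 fell in KMS12-BM, against 17.0% and 13.6% of all genes, and none rose and 1 fell in JJN3, against 8.65% and 6.12%. Of the 14 regulators, POU2AF1 fell in KMS12-BM by 0.92 ± 0.19 with amiloride and by 1.23 ± 0.19 with TG003, while PAX5 averaged 7.47 with amiloride and 6.95 with DMSO and BACH2 averaged 7.25 with amiloride and 5.55 with DMSO, both below the background reference with DMSO. In KMS12-BM, 4 regulators rose and 3 fell with amiloride, and 6 fell with TG003. In JJN3 1 rose with amiloride, and 1 rose and 2 fell with TG003. These counts are to be read against the same all-gene shares, with 3.74% of all genes higher for TG003 in JJN3. IRF4 and XBP1 rose with amiloride in KMS12-BM, by 0.78 ± 0.15 and 0.84 ± 0.19, and stand in both the marker and the regulator counts. So do IRF4, PRDM1 and XBP1, which fell with TG003 in KMS12-BM, and IRF4, which fell with TG003 in JJN3.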

How the data were processed

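RNA was measured on 18 biotin-labelled arrays. The deposited log2 values were made by the authors with RMA, per the submitters' processing notes, with no version; a genome build is not given there. The labels call the molecule total RNA, the series text poly A+ RNA. With arrays, precision is limited by their number.

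Of 70523 probe sets, 25324 are listed in the platform annotation, 23781 with 1 symbol and 1543 with several; 45199 stay unnamed. The brightest probe set by mean over 18 arrays was kept for 479 genes with several, which gave 22465 genes. The background reference, 6.99, is the 95th percentile of 92 ERCC control probe sets. No source used here states that spike-ins were added, and some of these sets may carry signal. "At least" folds compare the KMS12-BM mean with that reference.

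Genes were fitted with limma 3.58.1 in R 4.3.3 as 6 group means with 12 residual degrees of freedom and 9 contrasts, two-sided, with Benjamini-Hochberg adjustment. Tables were prepared with pandas 2.3.3 and numpy 2.4.6 in Python 3.11.15, and figures with matplotlib 3.10.9. In a test on simulated data for amiloride in KMS12-BM, 100 of 22465 genes were shifted. At a shift of 1, 93% of them were recovered, and at a shift of 0.5, 68%, with 13 false calls in each case. The real comparison called 6865 genes, so the test does not give its recovery or false calls. The members and lists were chosen with earlier results of these data known. All 9 members are named, with up to 4 genes per pathway list with the largest called difference, and the 3 genes most correlated with each member called under a drug. Replicate numbers were assigned by rising serial code in the titles. After group means were removed, in 4 of 15 pairs of groups all 3 same-numbered pairs of arrays had a correlation over 0.1. These were TG003 with DMSO in each line, JJN3 with KMS12-BM in DMSO, and KMS12-BM amiloride with JJN3 TG003. Amiloride with DMSO was not among them, at 0.09, 0.23 and 0.11 in KMS12-BM and 0.17, 0.11 and -0.10 in JJN3. The alternatives were 8 settings and leaving out each of the 18 arrays.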

Additional observations from a re-analysis of the deposited data

Results flagged for a closer look

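For 3 genes the JJN3 response to a drug minus the KMS12-BM response was called (limma, adjusted over all genes). For PLCG2 the difference was 1.94 for amiloride (adjusted p = 5.1e-06) and 1.10 for TG003 (adjusted p = 0.0041). For BTK it was 1.03 for amiloride (adjusted p = 0.003) and 1.23 for TG003 (adjusted p = 0.0042). For BLNK it was 0.78 for TG003 (adjusted p = 0.014). BTK and BLNK lay below the background reference on all 9 JJN3 arrays, where no fall could have been seen. For them the test cannot tell whether the responses differ. PLCG2 lay above the reference on all 9 JJN3 arrays. PLCG2 averaged 8.18 in JJN3 DMSO, however. From there a fall of 2.43 or 1.79, as in KMS12-BM with amiloride or TG003, would have ended below the reference of 6.99. The amiloride dose was 0.4 mM in JJN3 and 0.1 mM in KMS12-BM, and that of TG003 was 0.4 mM in both.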

How the results depend on the processing

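Over 8 alternative settings and the 18 arrays left out in turn, 1224 values of single genes were recomputed. Of these 1179 stayed on their side of the threshold, 27 were no longer called, 18 became called and 0 of the called values changed sign. In JJN3 under amiloride the number of genes called, 1, became 2 with the replicate block and 2 when only genes above the background reference in at least 1 group were tested, CD79B being the added gene in both (adjusted p = 0.031 with the replicate block and 0.041 with the filter). Leaving out 1 array gave 0 to 1 there, with 0 without JJN3 amiloride array 3 or JJN3 DMSO array 3, and 1 to 2 for TG003 in JJN3, with 1 without JJN3 DMSO array 1 or TG003 array 3. In the 2 other drug comparisons, KMS12-BM had 4 to 5 genes called for amiloride and 4 to 6 for TG003 with 1 array left out, and the line comparison had 8 in every such fit. Over the other settings, KMS12-BM had 3 to 5 called for amiloride and 4 to 6 for TG003. JJN3 had 2 to 3 for TG003 over them, and the line comparison 7 to 8. The replicate block changed the call of CD79A under TG003 in KMS12-BM, given above. Testing every probe set gave 12475 calls for amiloride in KMS12-BM, against 6865 in the main fit, and 17087 for the lines, against 9258. It also gave 5658 for TG003 in KMS12-BM, against 3330, and 11749 for amiloride against TG003 in KMS12-BM, against 6686. Those counts are over 70523 probe sets and the main ones over 22465 genes, so a higher count is not a higher share. The TG003 response difference had 679 calls without KMS12-BM DMSO array 1 and 677 without JJN3 DMSO array 2, against 1026. The background reference limits what can be said of SYK and MS4A1 in both lines and of BTK, BLNK, CD79A and CD37 in JJN3, where 3 of 9 arrays showed CD37 above it. It also limits how far PLCG2 could be seen to fall in JJN3, and 3 arrays a group limit the rest.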
